A study of Rattus norvegicus with 12 samples.

Results

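The transcriptome described here is that of differentiated iAM-1 cells that had received no lentiviral shRNA vector, the untransduced group, which held 3 of the 12 samples of the series. iAM-1 is a line of conditionally immortalised atrial myocytes from Wistar rats. It carries LT-tsA58, a temperature-sensitive large T antigen of SV40, in a lentiviral vector whose name holds MHCK7, a promoter active in striated muscle, and it is kept dividing with doxycycline and differentiates once the drug is gone. The cells grew in Advanced DMEM/F-12 with GlutaMAX and 2% foetal bovine serum, and no doxycycline was given while they differentiated. All groups of the series share this line, transgene and medium, and the other 3 groups, which each received an shRNA vector, are not analysed here. The marks D9 and P10 in the titles are not expanded by the labels. The RNA was polyA-selected, made into strand-specific libraries and sequenced as read pairs of 150 bases.

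Atrial myocytes are the working muscle cells of the heart's upper chambers. They contract through sarcomeres built largely of atrial or shared cardiac isoforms, conduct and time the beat with a set of ion channels and connexins, and secrete atrial natriuretic peptide, a hormone that lowers blood volume and pressure. Many of their proteins come from gene families in which another member serves the ventricle, skeletal muscle or smooth muscle, so that the member in use describes the state of the cell.

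The deposited tables hold 1 value per feature for the whole group. TPM (read counts scaled to transcript length and to a fixed total) was used to compare genes with each other, and CPM (read counts scaled to the library total) to give shares of reads and the spread between libraries. The CPM of the 3 libraries, lettered A, B and C by their totals of 30880786, 34919366 and 35082868 assigned reads, were recovered from the stored digits of the mean for all but 5 of the 15930 features above 0. These 5 were Myh6, Atp2a2, Nppa, Actc1 and Mt-co1, for which the authors' mean is given without an error, while their sum was 82298, 81627 and 82422 CPM in libraries A, B and C. For 42 other abundant features, Myl4, Myl7, Tnnt2, Tpm1, Tagln, Acta2 and Casq2 among them, several triples of reads fit the mean, and the one kept was chosen by a limit on the spread, which bounds their SD by construction. The labels do not tell whether separate cultures gave these libraries, so the spread may be technical.

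The 6 genes taken as markers of these cells were all among the highest of the transcriptome. Nppa, the gene of atrial natriuretic peptide, stood first with 45374 TPM and 17825 CPM. Myl4, the atrial essential light chain of myosin, stood second with 20292 TPM, and its CPM were 7533, 7449 and 7688 in libraries A, B and C. The cardiac actin gene Actc1 had 11421 TPM. Myl7, the atrial regulatory light chain, had 7437 TPM and 6146, 5817 and 6063 CPM in the libraries. Myh6, the alpha heavy chain of cardiac myosin, had 6587 TPM and took the largest share of reads of any feature, 26145 CPM. Atp2a2, the calcium pump of the sarcoplasmic reticulum (SERCA2), had 5379 TPM and 18131 CPM. In the deposited Rnor_6.0 loci, Nppa lies on chromosome 5 from 164808323 to 164809705, Myl4 on chromosome 10 from 92628356 to 92638100, Myl7 on chromosome 14 from 86143862 to 86147553 and Myh6 on chromosome 15 from 33605654 to 33629699. In a bulk sample, fewer cells of a type and less RNA per cell cannot be told apart.

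The 120 bases before the RefSeq transcription start of these marker genes in GRCr8 are shown because they are the promoters of some of the most abundant messages of these cells. Each is written 5′ to 3′ on the gene's own strand, and capitals mark matches on either strand to the TATA box TATAAA or to CATTCC, the core of the M-CAT element to which TEAD factors bind.
Nppa, chr5:163712064-163712183, plus strand: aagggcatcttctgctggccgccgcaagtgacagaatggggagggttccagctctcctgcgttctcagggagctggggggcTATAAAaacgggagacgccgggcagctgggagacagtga
Myl4, chr10:89976030-89976149, plus strand: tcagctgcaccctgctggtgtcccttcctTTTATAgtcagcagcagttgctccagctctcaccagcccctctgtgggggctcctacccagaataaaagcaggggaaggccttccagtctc
Actc1, chr3:121271828-121271947, minus strand: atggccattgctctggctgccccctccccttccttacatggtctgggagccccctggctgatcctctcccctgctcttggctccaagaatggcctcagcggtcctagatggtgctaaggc
Myl7, chr14:84996625-84996744, minus strand: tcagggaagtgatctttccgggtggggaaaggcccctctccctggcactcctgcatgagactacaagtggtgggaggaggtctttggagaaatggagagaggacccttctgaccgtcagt
Myh6, chr15:32411698-32411817, minus strand: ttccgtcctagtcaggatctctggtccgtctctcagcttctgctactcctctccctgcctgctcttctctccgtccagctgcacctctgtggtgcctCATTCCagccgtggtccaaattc
Atp2a2, chr12:39733399-39733518, plus strand: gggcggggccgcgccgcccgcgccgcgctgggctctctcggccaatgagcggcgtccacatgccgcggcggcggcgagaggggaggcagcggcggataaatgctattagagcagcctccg

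In the Nppa sequence the TATA box ran from 39 to 34 bases before the start, and the match in Myl4, on the other strand, from 91 to 86 bases before it. The GC content ranged from 56.7% in Myl7 to 75.0% in Atp2a2. Over the 250 bases before the start, TATAAA was found on either strand in 11 of the 100 nuclear genes with the highest TPM that have a promoter entry, in 5.90% of 8120 genes from 1 TPM, in 14.1% of 5375 genes under 1 TPM and in 13.1% of all 27457 promoters. CATTCC was found in 18 of these 100, in 9.83% of genes from 1 TPM, in 11.5% of those under 1 TPM and in 11.8% of all promoters. The CArG box, to which serum response factor binds, was found in 2 of the 100, in 1.23% of genes from 1 TPM and in 1.5% of all promoters, and in none of the 6 sequences above. A match of letters is a description and does not show that a factor binds.

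Of 32760 identifiers, 11779 had at least 1 TPM, 8052 at least 10, 1547 at least 100 and 136 at least 1000. The summed TPM was concentrated in few features: the 10 highest held 14.1%, the 100 highest 34.8% and the 295 highest 50% of it. After Nppa and Myl4 came Mt-co1, a mitochondrially encoded subunit of cytochrome c oxidase, with 12264 TPM, and Actc1. Tagln, which encodes the actin-binding protein transgelin of smooth muscle and of immature cardiac muscle, followed with 10825 TPM. Its CPM were 6858, 6694 and 7054 in libraries A, B and C. Troponin T (Tnnt2) had 8739 TPM, the smooth muscle actin Acta2 had 8209 TPM, and the alpha tropomyosin Tpm1 had 6556 TPM. Genes of secreted or protective proteins stood beside them, with 7369 TPM for Gpx3, the extracellular glutathione peroxidase, 4494 TPM for Clu, the extracellular chaperone clusterin, and 3038 TPM for Fth1, the heavy chain of ferritin. Atp5b, the catalytic beta subunit of ATP synthase, had 4769 TPM.

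**Figure D1:**
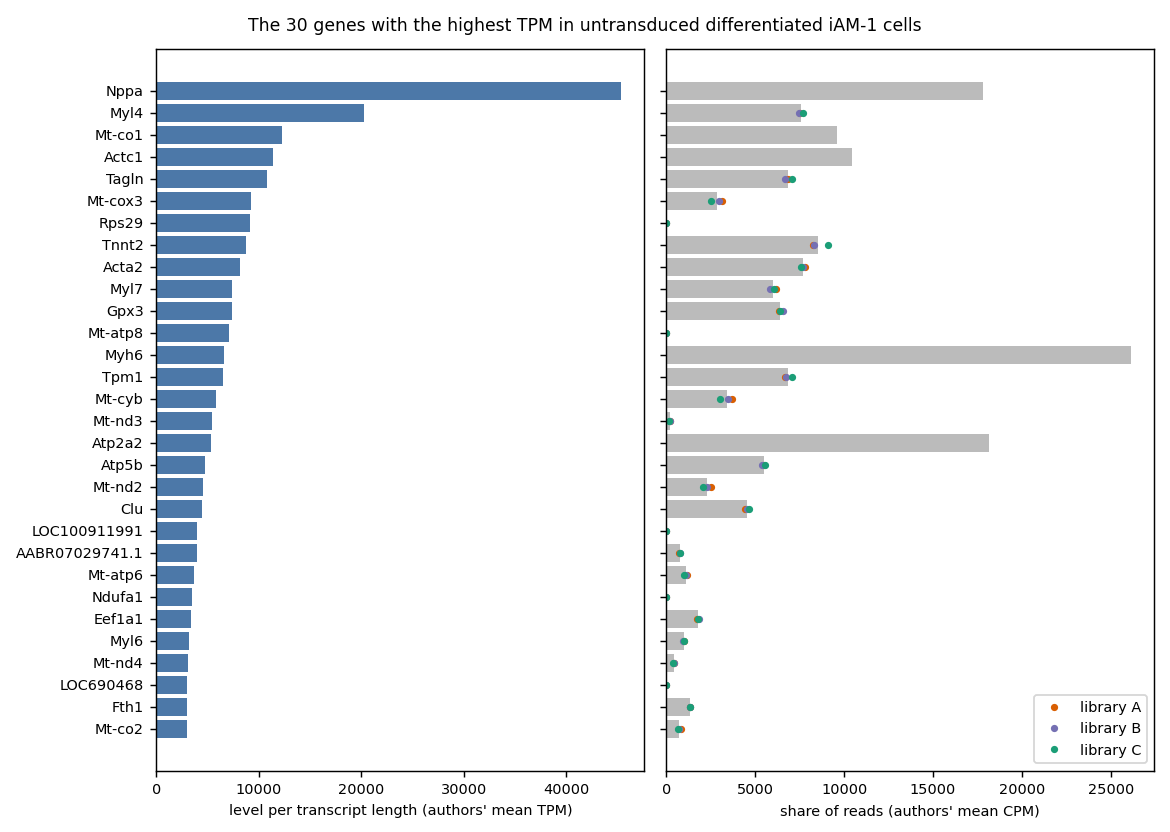
The 30 genes with the highest TPM, from the top. Blue bars give the authors' mean TPM (left panel), grey bars the authors' mean CPM of the same genes (right panel), and points the recovered CPM of libraries A, B and C. Nppa leads by TPM with 45374 and Myh6 by CPM with 26145, 5 genes have no points because their libraries were not resolved, and features such as Rps29 and Ndufa1 have a high TPM with few reads.

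By CPM, which also counts the length of a message, the order differed, and 17 genes were in both lists of the 30 highest. Long messages stood higher by CPM. All 8 genes given here with an SD are among the 42 whose library values were chosen by the limit on the spread, so these SDs are bounded by that choice. Mybpc3, the cardiac myosin binding protein C, had 3152 ± 103 CPM (SD, n = 3 libraries) and 916 TPM. Flna, which encodes the actin crosslinker filamin A, had 2933 ± 48.1 CPM and 432 TPM. Fn1, the gene of fibronectin, had 2191 ± 124 CPM and 321 TPM, and Lamb2, which encodes the laminin beta 2 chain, 2362 ± 36.9 CPM and 553 TPM. Others in the CPM list were Ankrd1, a nuclear and sarcomeric stretch-responsive protein, with 3098 ± 30.3 CPM, Eef2, a translation elongation factor, with 3502 ± 118 CPM, Cpe, which encodes a prohormone-processing carboxypeptidase, with 2152 ± 5.68 CPM, and Txnip, the thioredoxin-interacting protein, with 2405 ± 55.3 CPM.

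Genes were assigned to 17 functional classes, which together held 45.8% of the summed TPM and 35.6% of the reads. The sarcomere class, with 79 of 84 listed genes matched and 60 of them from 1 TPM, was the largest of these by either measure. It held 9.01% of reads and 7.64% of the summed TPM, without Ttn, the gene of titin, which was not matched by symbol. The 5 highest members were Myl4, Actc1, Tnnt2, Myl7 and Myh6. Calcium handling took 2.90% of reads and 1.11% of the TPM, of which Atp2a2 was 48.3%, Casq2, the calcium store protein of the sarcoplasmic reticulum, 9.47%, and phospholamban (Pln), the brake on the SERCA pump, 5.90%. The natriuretic peptide genes took 1.82% of reads and 4.66% of the TPM. Of this TPM Nppa was 97.4% and Nppb, which encodes the brain natriuretic peptide, 2.64% at 1232 TPM, while Nppc had 0.039 TPM.

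Among the classes of energy metabolism, the respiratory chain held the largest shares. The 13 mitochondrially encoded genes held 2.39% of reads and 6.06% of the TPM. The 94 nuclear genes of oxidative phosphorylation, 88 of them from 1 TPM, held 2.20 ± 0.041% of reads (SD, n = 3 libraries) and 5.88% of the TPM. This SD is bounded in part by construction, as the library values of Atp5b and Atp5a1 were chosen by the limit on the spread. The citric acid cycle and fatty acid oxidation held 1.05 ± 0.0045% of reads and 0.833% of the TPM in 47 genes, all from 1 TPM. They were led by mitochondrial isocitrate dehydrogenase (Idh2) with 908 TPM and the heart fatty acid binding protein Fabp3 with 890 TPM. Glycolysis held 0.643 ± 0.0089% of reads and 0.734% of the TPM, led by aldolase A (Aldoa) with 1654 TPM.

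The extracellular matrix class held 2.70 ± 0.024% of reads and 1.07% of the TPM. Of its 171 genes, 95 had at least 1 TPM, and the highest were Sparc, a collagen-binding matricellular protein, with 1443 TPM, and Igfbp7, a secreted binding protein of growth factors, with 1119 TPM. The non-sarcomeric cytoskeleton held 3.74 ± 0.023% of reads and 4.52% of the TPM, led by Tagln and Acta2. Intercalated disc and costamere genes, which anchor muscle cells to each other and to the matrix, held 1.86 ± 0.019% of reads. The SDs of the matrix, cytoskeleton and disc classes are bounded in part by the limit on the spread. That limit chose the library values of Lamb2 and Sparc, of Tagln, Acta2 and Actb, and of Dag1 and Vcl. The ion channels, pumps and connexins were a large class of low messages, 62 of 208 genes from 1 TPM, with 0.950 ± 0.012% of reads and 0.413% of the TPM. Cell division genes held 0.150 ± 0.0017% of reads, and the highest of them were the inhibitors of cyclin-dependent kinases Cdkn1a with 662 TPM, Cdkn2a with 353 TPM and Cdkn1b with 129 TPM.

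**Figure D2:**
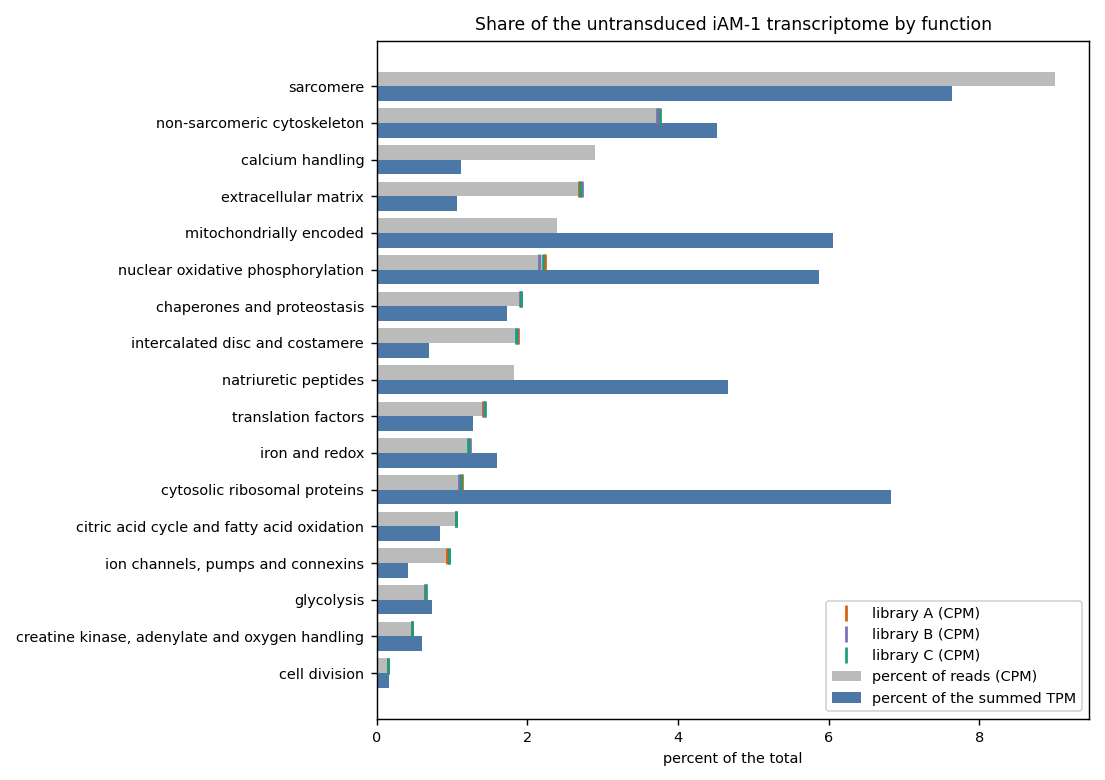
Share of the untransduced transcriptome by functional class, in percent of the total. Grey bars give the percent of reads (authors' mean CPM), blue bars the percent of the summed TPM, and coloured ticks the recovered libraries where all members of a class were resolved. Some library values behind the ticks were chosen by the limit on the spread. The sarcomere leads by either measure, while ribosomal protein genes hold 6.83% of the TPM but 1.12% of reads.

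For ribosomal proteins and some short messages the 2 deposited tables gave very different pictures. The 91 cytosolic ribosomal protein genes held 6.83% of the TPM and 1.12 ± 0.023% of reads. Rps29, summed over 4 identifiers of that symbol, had 9129 TPM but 8.79 CPM, Rps6 had 1460 TPM but 0.038 CPM, and Ndufa1, a subunit of complex I, had 3522 TPM but 0.060 CPM over its 2 identifiers. The glycolytic gene Tpi1 was listed at 396 TPM and 0 CPM. Among 8052 features from 10 TPM, 535 (6.64%) had under 1 CPM, and they held 8.31% of the summed TPM. Of these, 55.9% carried a clone, LOC, RGD or pseudogene name, against 7.16% of the other features from 10 TPM, and 28.0% overlapped another feature in the deposited loci, against 21.8% of the others. The part of shared reads in this was not tested, and no source used here says how either table was counted. Levels of such genes, and of near-identical copies in general, are therefore uncertain.

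In 94 families of related genes, which hold 476 matched members, 268 memberships had at least 1 TPM. A family is termed dominated here where 1 member held at least 80% of its summed TPM. This was so in 53 families, and in 42 of them the share was at least 90%. The median share of the leading member was 85.8% over 18 contractile, 95.2% over 31 electrical, 78.2% over 25 metabolic and 74.7% over 20 matrix families. Some families are parts of others, such as striated within all myosin heavy chains. Shares are of the members matched by symbol, which leaves out Ttn, Col1a2, Kcnd2, Itpr2, Cox7a2 and Prkag1 among others, not analysed here. By CPM the same member led in 85 families. The 9 others were the titin-associated giants, the LIM and PDZ-LIM genes, the inward rectifiers, the GIRK and KATP channels, the KChIP and KCNE subunits, the enolases, and the PPAR and ERR receptors with their coactivators. In the 90 families with library values, the same member led in all 3 libraries in 87.

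Cardiac isoforms led the myosins and troponins. Among 11 myosin heavy chain genes Myh6 held 89.9% of the TPM, and Myh7, the beta chain of ventricle and slow skeletal muscle, held 7.53% with 552 TPM. By CPM Myh6 held 96.3%, with 26145 CPM against 243 CPM for Myh7, so the 2 scales differed on the part of Myh7. The CPM of Myh7 were 270, 230 and 230 in libraries A, B and C, so that library A stood above the others. The skeletal and developmental chains Myh4, Myh8 and Myh3 had 11.2, 6.26 and 1.03 TPM, and the smooth muscle chain Myh11 had 0.454 TPM. Of the non-muscle chains, Myh10 had 70.3 TPM and Myh14 50.8 TPM, while Myh9 was listed at 47.6 TPM with at most 0.086 CPM in any library.

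The atrial forms led both light chain families. Myl4 held 86.3% of the essential light chain TPM and the non-muscle Myl6 13.7%, whereas Myl3, the ventricular form, had 1.54 TPM. Myl7 held 67.1% of the regulatory light chain TPM. The smooth muscle form Myl9 had 2285 TPM and the non-muscle form Myl12a 1217 TPM. The ventricular form Myl2 was listed at 0 TPM, with 0.032, 0.057 and 0 CPM in libraries A, B and C, which is below the 3 reads (0.086 to 0.097 CPM) used as a floor.

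The troponins were each represented by 1 cardiac gene. Tnni3, the cardiac troponin I, had 1180 TPM and 508, 493 and 526 CPM in the libraries, against 0.096 TPM for the slow skeletal form Tnni1, which is also the foetal cardiac form. Tnnt2 had 8252, 8307 and 9111 CPM in the libraries, highest in library C, and Tnnt1, the slow skeletal form, 2.69 TPM. Tnnc1, the troponin C of heart and slow muscle, had 1869 TPM, against 0.21 TPM for the fast form Tnnc2. Tpm1 held 85.2% of tropomyosin TPM and Tpm2 12.2%.

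Actins and actin crosslinkers were mixed. Actc1 held 48.9% of actin TPM and Acta2 35.2%, a ratio of 1.39. Acta2 had 7822, 7671 and 7587 CPM in libraries A, B and C. The cytoplasmic actin Actb had 2755 TPM, and the skeletal form Acta1 156 TPM. Among alpha-actinins the non-muscle Actn4 with 521 TPM and the sarcomeric Actn2 with 516 TPM were level, and the CPM of Actn4 (1518 to 1562 over the libraries) were above those of Actn2 (1088 to 1124). Flna held 76.4% of filamin TPM and the muscle form Flnc 17.1%. Smooth muscle forms were also present among kinases and leiomodins, with Mylk at 212 TPM beside the cardiac kinase Mylk3 at 164 TPM, and Lmod1 at 70.6 TPM beside the tropomodulin Tmod1 at 143 TPM.

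Cardiac forms also led the myosin binding proteins and the myozenins. Mybpc3 held 91.9% of the myosin binding protein TPM, and Mybphl, a family member of atrium and conduction tissue, had 45.4 TPM. Mybpc2, the fast skeletal form, had 34.7 TPM and 107, 114 and 112 CPM in the libraries. Myom1 held 98.1% of myomesin TPM. Myoz2, the cardiac calsarcin, held 99.9% of myozenin TPM with 146 TPM. Among LIM and PDZ-LIM genes, 9 of 10 had at least 1 TPM, and the 4 highest, Csrp1, Fhl1, Ldb3 and Fhl2, lay between 442 and 661 TPM. Csrp1, which is not specific to the heart, led by TPM and Ldb3, a Z-disc protein, by CPM with 1454, 1431 and 1420 in libraries A, B and C. Csrp3, the muscle LIM protein, had 60.4 TPM.

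**Figure D3:**
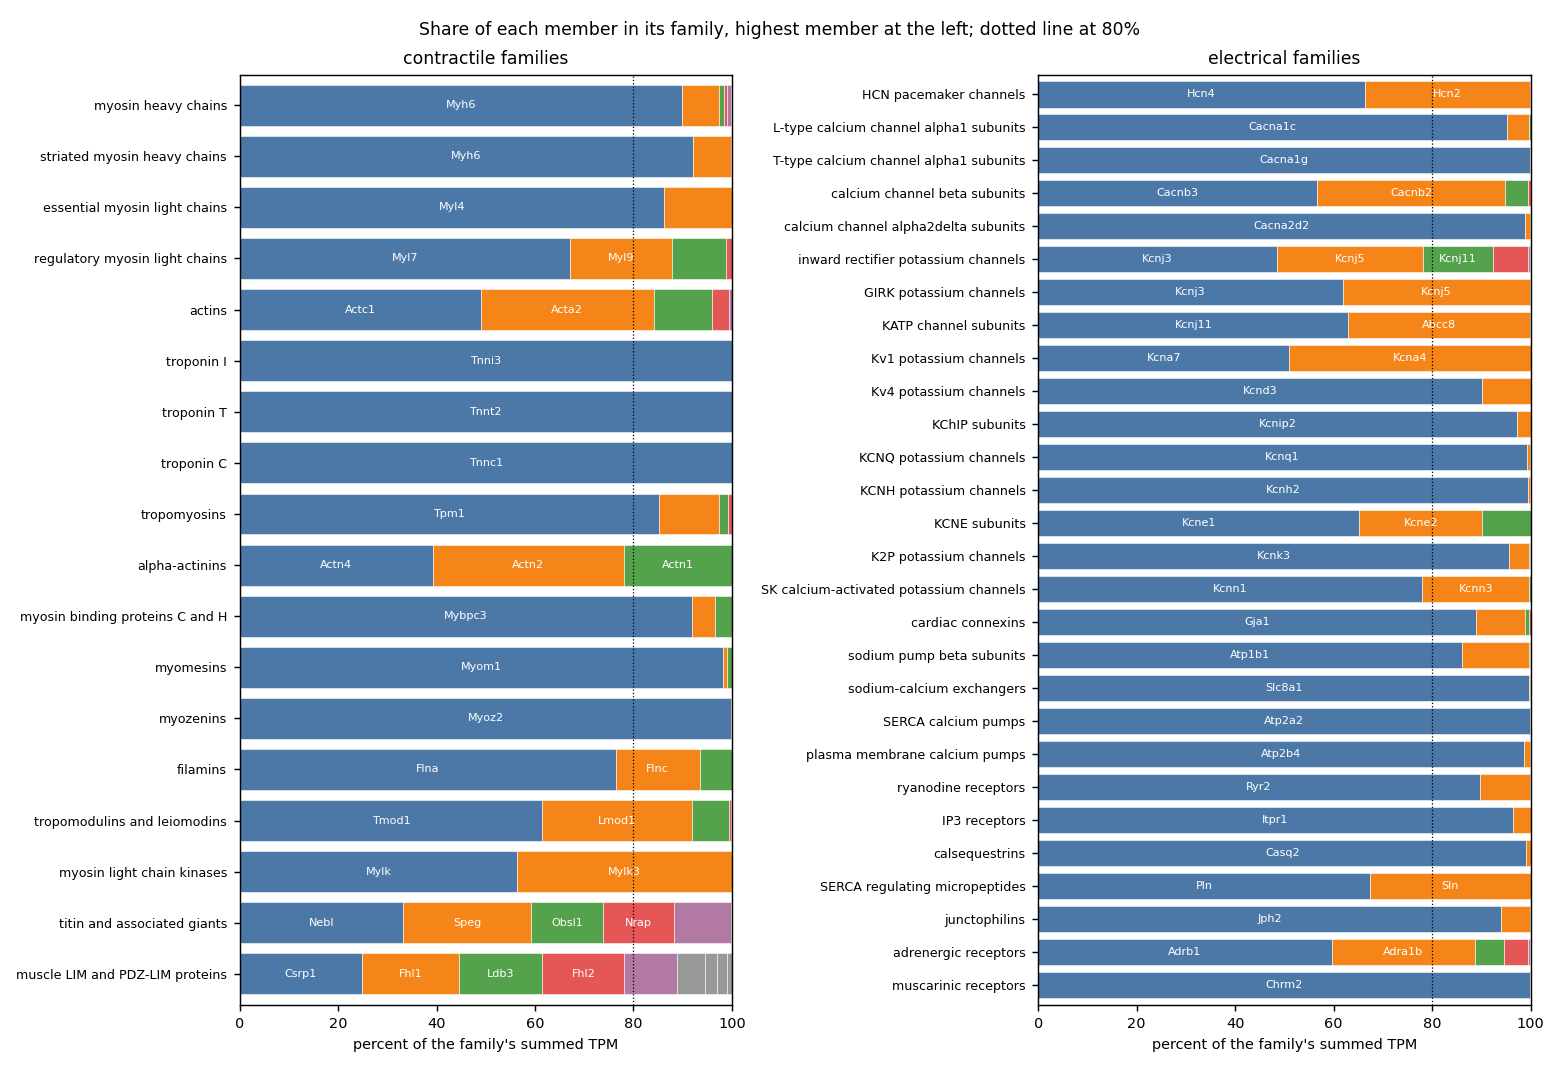
Share of each member in the summed TPM of its family, in percent, for contractile families (left) and 28 electrical families (right). Colours run from the highest member at the left end, members from 14% are named, and the dotted line marks 80%. Troponins, SERCA pumps and muscarinic receptors are single-colour bars, while actins, alpha-actinins and inward rectifiers are divided.

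Of 31 electrical families, 21 were dominated by 1 member. Cacna1c, the cardiac L-type calcium channel that starts contraction, had 36.5 TPM and 226, 221 and 219 CPM in libraries A, B and C. Cacna1d, the L-type channel of atrium and sinus node, had 0.15 TPM. The T-type channel Cacna1g, prominent in pacemaker and developing atrial cells, had 164 TPM and 1008, 1071 and 1056 CPM, 4.51 times the TPM of Cacna1c. The other T-type genes, Cacna1h and Cacna1i, had 0.0068 and 0 TPM. Of the alpha2delta subunits, Cacna2d2 held 98.8% with 241 TPM, and Cacna2d1, the usual ventricular form, had 2.48 TPM.

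Pacemaker channel genes were present. Hcn4, the main pacemaker channel of the sinus node, had 36.3 TPM and 137, 153 and 153 CPM in libraries A, B and C, and Hcn2 had 18.4 TPM and 35.1, 35.9 and 35.9 CPM. Hcn3 was below 0.05 TPM.

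Several atrial potassium channel genes were present, while the atrial gene Kcna5 was listed at 0 and some other cardiac ones were near 0. Kcnj3 and Kcnj5, which form the acetylcholine-gated GIRK channel of atrial cells, had 112 and 68.7 TPM. The order turned by CPM, at 122 to 127 over the libraries for Kcnj3 and 227 to 235 for Kcnj5. Chrm2, the muscarinic receptor that opens this channel through its G protein, had 225 TPM and 336 ± 0.377 CPM (SD, n = 3 libraries). This SD is smaller than the counting error of such a value, so it does not give the precision of Chrm2. The next member, Chrm4, had 0.021 TPM. Kcnj2, the usual carrier of the resting inward rectifier current, had 0.020 TPM, and its relative Kcnj12 had 16.5 TPM and 23.9, 26.3 and 26.0 CPM. Of the ATP-sensitive channel, the pore Kcnj11 had 32.5 TPM and its partner Abcc8, the sulphonylurea receptor known from beta cells and rodent atrium, 19.1 TPM, against 0.012 TPM for Abcc9, the receptor of ventricle, and 0 for Kcnj8. By CPM the order of the first pair turned, at 73.3 to 80.4 over the libraries for Kcnj11 and 89.6 to 93.8 for Abcc8.

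The delayed rectifier and K2P families were each led by 1 gene. Kcnh2, the channel of the rapid delayed rectifier, had 250 TPM and 583, 629 and 624 CPM in the libraries. Kcnq1, of the slow delayed rectifier, had 50.9 TPM, while its partner Kcne1 had 0.913 TPM, the highest of its family by TPM but not by CPM, where Kcne2 led, and none of the 5 Kcne genes reached 1 TPM. Kcnk3, the acid-sensitive background channel TASK-1 known from atrium, had 144 TPM and 437, 449 and 453 CPM. The transient outward genes matched by symbol were lower, with 10.2 TPM for Kcnd3 and 5.20 TPM for Kcna4, while Kcnd2 was not matched. Kcna7, in the same channel family as Kcna4, had 5.40 TPM. Kcna5, which carries the ultrarapid current of human atrium, was listed at 0. The tables disagreed on KChIP subunits, where Kcnip2 had 14.7 TPM but at most 0.065 CPM in any library, and Kcnip3 led by CPM. Of the SK channels Kcnn1 had 5.85 TPM and Kcnn3 1.62 TPM.

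Connexins and sodium-calcium exchangers were also led by single genes. Gja1 (connexin 43) held 88.9% of connexin TPM with 493 TPM and 1022, 1006 and 976 CPM in libraries A, B and C. Gjc1 (connexin 45) had 55.0 TPM, and Gja5 (connexin 40), typical of atrium and conduction tissue, had 4.77 TPM. Slc8a1, the cardiac sodium-calcium exchanger, held 99.7% with 293 TPM.

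In calcium release and uptake Atp2a2 was the SERCA gene at 5379 TPM, with Atp2a1 at 0.402 TPM. Of its small inhibitors, phospholamban had 657 TPM and 1028, 993 and 961 CPM in the libraries, and sarcolipin (Sln), the atrial form, had 317 TPM and 120, 113 and 123 CPM. The cardiac ryanodine receptor Ryr2, the release channel, had 39.2 TPM and 590, 530 and 541 CPM, and Ryr3 4.52 TPM. The IP3 receptor Itpr1 had 124 TPM, 3.17 times the TPM of Ryr2, and 863, 822 and 852 CPM. Casq2 held 99.2% of calsequestrin TPM. Jph2, which holds the sarcoplasmic reticulum to the surface membrane, held 94.0% of junctophilin TPM with 329 TPM. Of the adrenergic receptors, the cardiac beta receptor Adrb1 had 62.8 TPM and Adra1b 30.5 TPM.

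Of 25 metabolic families, 12 were dominated by 1 member. Glucose uptake and glycolysis were led mostly by the widely expressed isoforms. The basal glucose transporter Slc2a1 had 32.4 TPM and 53.4, 51.1 and 53.6 CPM in libraries A, B and C, and the insulin-responsive transporter Slc2a4 had 5.32 TPM and 10.1, 9.39 and 10.1 CPM. Hk1 held 93.2% of hexokinase TPM and Hk2, the insulin-responsive muscle form, 5.52%. The platelet form of phosphofructokinase, Pfkp, had 330 TPM, above the muscle form Pfkm with 160 TPM. The brain form of glycogen phosphorylase, Pygb, had 154 TPM, above the muscle form Pygm with 73.5 TPM. The brain creatine kinase Ckb had 147 TPM and 121, 128 and 127 CPM, above the muscle form Ckm with 54.8 TPM and 45.7, 49.3 and 49.3 CPM. Among enolases the order turned with the scale: Eno1 had 315 TPM and the muscle form Eno3 243 TPM, while Eno3 had 255 to 271 CPM over the libraries and Eno1 208 to 222 CPM.

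Lactate dehydrogenase was led by Ldha with 78.2% of TPM and 816, 818 and 823 CPM, and Ldhb, the heart form, held 20.9%. Among genes of fat use, Fabp3 had 890 TPM and the next fatty acid binding protein, Fabp5, 0.077 TPM. The CPM of Fabp3 were 326, 304 and 322 in the libraries. Cpt1a, the liver form of the enzyme that admits fatty acids to mitochondria, held 91.5% of its family with 42.9 TPM, and Cpt1b, the muscle form, had 1.19 TPM and 3.98, 3.26 and 3.53 CPM. Myoglobin (Mb), the oxygen store of muscle, had 21.3 TPM and 9.65, 10.3 and 12.4 CPM.

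Respiratory chain isoforms were mostly of the widely expressed kind where a heart and skeletal muscle form exists. Cox6a1 had 1136 TPM, against 10.4 TPM for the muscle form Cox6a2. Cox8a had 2071 TPM and the muscle form Cox8b 1268 TPM. Of subunit 4, Cox4i1 had 2678 TPM, against 0.075 TPM for Cox4i2, a form known from lung. Slc25a4, the heart form of the ADP/ATP carrier, held 89.4% of its family with 2353 TPM. Esrra had 93.4 TPM, Esrrg 35.2 TPM and their coactivator Ppargc1a, a driver of mitochondrial biogenesis, 15.8 TPM, while Ppara had 4.72 TPM. By CPM Esrrg, at 120 to 124 over the libraries, and Esrra, at 111 to 125, overlapped. All 8 genes of that list had at least 1 TPM.

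Basement membrane genes stood above the matched genes of fibrillar collagens. Col4a2, Col4a1 and Col4a5, chains of the basement membrane collagen, had 324, 251 and 153 TPM, and the family of 6 summed to 755 TPM. The 10 fibrillar collagen genes matched summed to 77.3 TPM, which leaves out Col1a2. Col4a2 had 1576, 1687 and 1699 CPM in libraries A, B and C. Fibrillar collagen was led by Col5a1 with 44.5 TPM, above Col1a1 with 15.3 TPM and Col3a1 with 4.84 TPM. Lamb2 held 89.1% of laminin beta TPM and Lamc1 96.4% of laminin gamma TPM. Lama5 and Lama4 had 99.3 and 70.3 TPM, and Lama2, the laminin alpha chain of mature striated muscle, 2.29 TPM. Perlecan (Hspg2, matched through a RefSeq synonym) had 99.1 TPM and 666, 616 and 603 CPM.

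Several other matrix families were nearly all 1 gene, with Col6a2 at 97.1% of collagen VI TPM, Efemp2 at 96.7% of fibulin TPM and Sdc2 at 96.3% of syndecan TPM. Sparc held 99.7% of its family, and Eln, the gene of elastin, 97.5% of its own with 473 TPM and 1419, 1441 and 1432 CPM. Of the small leucine-rich proteoglycans Fmod had 526 TPM and Bgn 505 TPM, while Dcn was listed at 0 TPM. Ogn was listed at 316 TPM with at most 0.086 CPM, a further gene on which the tables disagreed. Of the proteases Mmp15 led with 109 TPM, and Mmp2 had 2.45 TPM. Of their inhibitors Timp2 had 450 TPM and 548, 576 and 646 CPM in the libraries, highest in library C, and Timp3 208 TPM. The laminin receptor subunit Itga7 led 16 integrin alpha genes with 105 TPM, and Itgb1 held 62.9% of integrin beta TPM. Ctgf, a matricellular gene that responds to stretch, had 152 TPM and Cyr61 76.2 TPM.

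**Figure D4:**
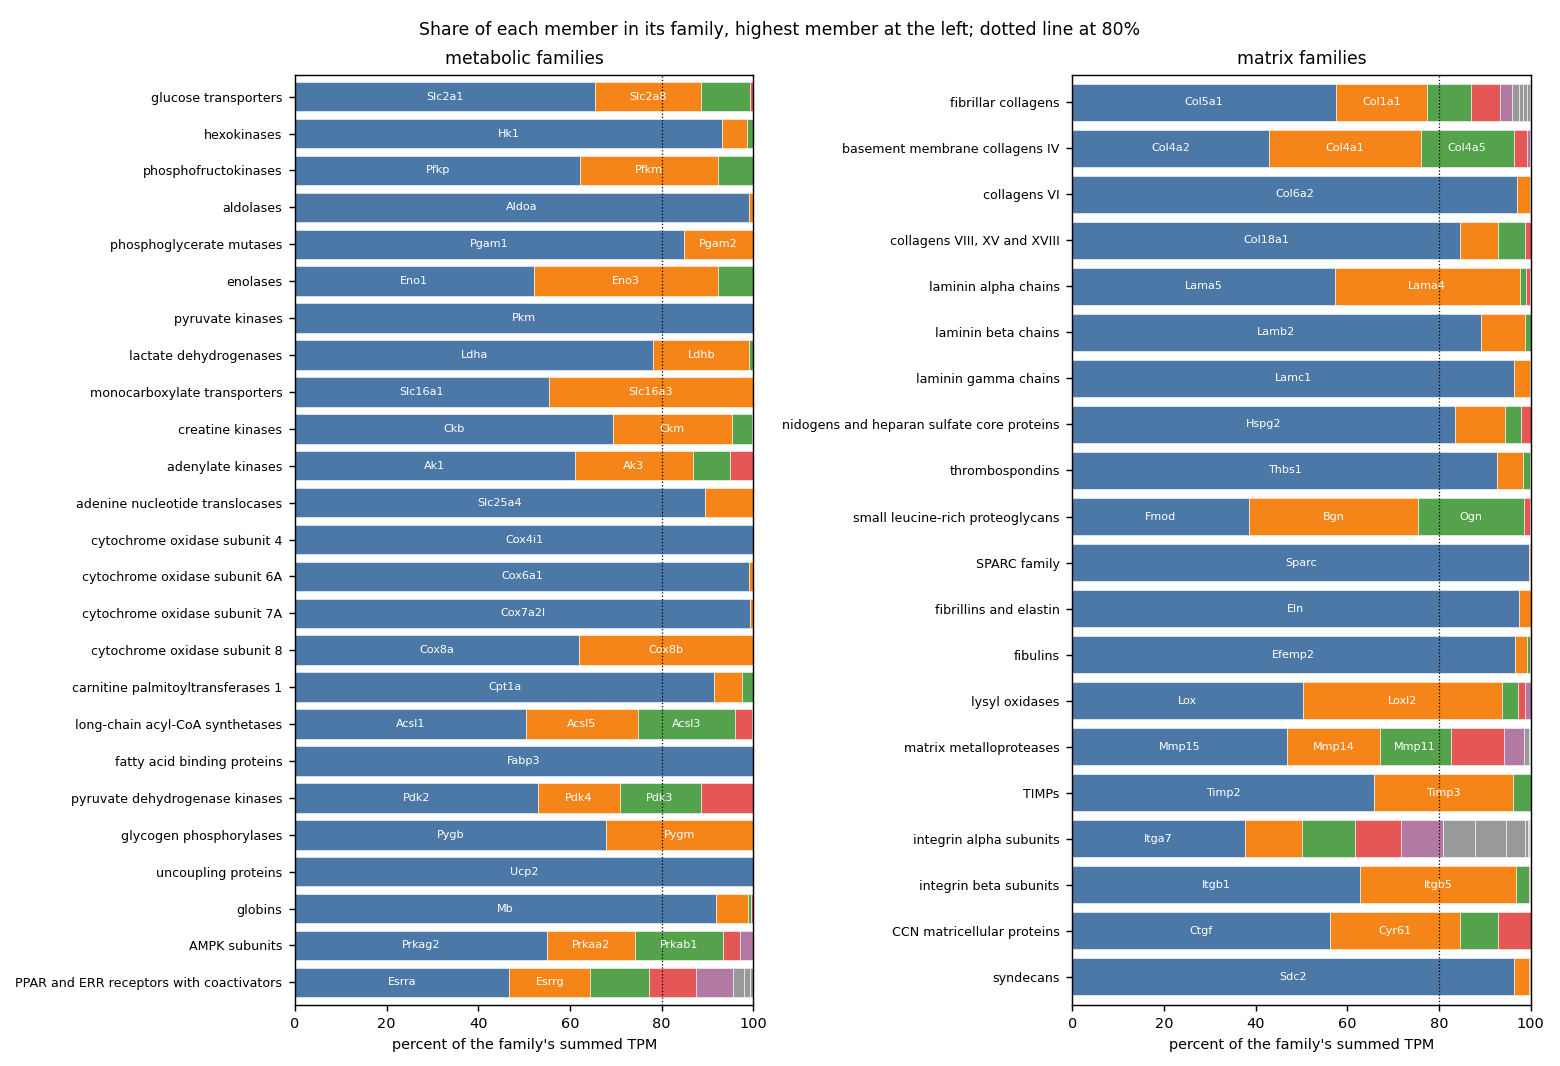
Share of each member in the summed TPM of its family, in percent, for metabolic families (left) and matrix families (right), drawn as for the contractile families. Fabp3, Cox4i1, Ucp2, Sparc and Eln fill nearly the whole of their bars, whereas acyl-CoA synthetases, pyruvate dehydrogenase kinases and integrin alpha subunits are divided.

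The label of atrial myocytes was compared with marker lists. Of 17 atrial genes, 14 had at least 1 TPM, and the TPM of the list summed to 75002. Nearly all of this sum was Nppa, Myl4 and Myl7, which are also among the 6 genes taken as markers of these cells. The sum therefore restates that choice, and the median of the list was 68.7 TPM. The 14 genes also included Pam, the peptide-amidating enzyme abundant in atrial granules, with 547 TPM, and Stard10 with 469 TPM. Further members were the transcription factor Tbx5 with 236 TPM, Bmp10 with 53.6 TPM and Nr2f2, a regulator of atrial identity, with 16.6 TPM. Kcna5 was listed at 0, and Nr2f1 had 0.359 TPM. Of 8 ventricular genes, 4 had at least 1 TPM, of which Myh7 with 552 TPM and Lbh with 532 TPM made up nearly all of a sum of 1088 TPM. Both stood lower by CPM, Myh7 at rank 708 against 275 by TPM, and Lbh at rank 1749 against 291. Hey2 had 2.90 TPM, and Irx4, the ventricular transcription factor, had 0.012 TPM.

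All 14 cardiac transcription factors on the list had at least 1 TPM, among them Nkx2-5 with 242 TPM and 205, 243 and 233 CPM in libraries A, B and C, Gata4 with 162 TPM and 388, 402 and 390 CPM, and Mef2a with 247 TPM. Of 11 sinus node and conduction genes, 7 had at least 1 TPM. Besides Cacna1g and Hcn4 these included Shox2, a regulator of sinus node identity, with 115 TPM and 160, 164 and 163 CPM, and Tbx18, of the sinus horns, with 49.7 TPM and 173, 164 and 160 CPM. Tbx3, which represses the working myocardial programme in the node, had 0.337 TPM, and Isl1 was listed at 0.

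Most markers of other cell types were near 0, with smooth muscle genes as the main exception. Of 7 fibroblast genes, 1 had at least 1 TPM (Col1a1), and Dcn, Lum and Tcf21 were at 0. Of 6 endothelial genes matched, 1 did, the receptor Kdr with 39.6 TPM and 151, 129 and 136 CPM, while Cdh5, Emcn and Tie1 were at 0. Of 6 leukocyte genes none did, and the highest was Cd14 with 0.418 TPM. Of 5 epicardial and mesothelial genes 1 did, Upk3b with 25.9 TPM, with Wt1 at 0.202 TPM. Of 6 neural genes 1 did, and Sox10, Elavl4 and Snap25 were at 0. Of 6 skeletal muscle genes none did, Myog being highest with 0.221 TPM. Of 6 smooth muscle and pericyte genes 3 did, Cnn1 with 163 TPM, Cspg4 with 27.9 TPM and Smtn with 25.8 TPM, beside the high Acta2 and Tagln, while Rgs5 was at 0 and Myh11 and Pdgfrb had 0.454 and 0.067 TPM.

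Of 15 genes of the dividing cell, 5 had at least 1 TPM. These were Pcna with 55.1 TPM, Tyms with 32.5 TPM, Mcm2 with 9.84 TPM, Mcm6 with 4.66 TPM and Mki67 with 1.47 TPM. The mitotic genes lay under 1 TPM, with 0.928 TPM for Cdk1, 0.494 TPM for Ccnb1, 0.071 TPM for Top2a and 0 for Ccna2. So did Rrm2, Ccne1 and Mcm5, genes of DNA replication or of entry into it, with 0.321, 0.319 and 0.248 TPM. The list thus did not divide into replication and mitotic genes. Mki67 had 10.1, 10.4 and 9.38 CPM in libraries A, B and C.

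The immortalising transgene was read at a low level in the absence of doxycycline. The LT-tsA58 feature had 7.44 TPM and 400, 446 and 370 reads in libraries A, B and C, which is 13.0, 12.8 and 10.5 CPM. TetR-KRAB, the repressor through which doxycycline acts, had 3.14 TPM and 22, 23 and 27 reads, and the woodchuck posttranscriptional element of the vectors had 24.3 TPM. The eGFP feature of the shRNA vector, which these cells were not given, had 0, 9 and 2 reads and 0.786 TPM. The end of that vector had 0 reads in each library but was listed at 0.207 TPM. Of the SH3-binding kinase genes, Sbk2, the gene knocked down elsewhere in the series, had 28.9 TPM and 42.6, 47.3 and 45.6 CPM. Sbk3 had 6.30 TPM and 6.87, 7.02 and 7.33 CPM. Sbk1 was listed at 1.5 TPM with 2, 3 and 2 reads.

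The 3 libraries were close to each other. Over 8387 genes from 10 CPM with library values, the median coefficient of variation was 3.74%, and in 95.4% of them it was under 10%. It reached 20% in 3 genes, all highest in library A. These were Trappc2, which encodes a protein of vesicle transport, and the features Rn60_1_2212.2 and Rn60_1_2212.3, named after their values were seen. The immediate early gene Egr1, also chosen so, had 28.9, 41.4 and 35.3 CPM in libraries A, B and C.

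Mitochondrially encoded messages moved together between the libraries. Mt-nd1, a complex I subunit, had 884, 819 and 712 CPM in libraries A, B and C, Mt-cox3 had 3155, 2951 and 2531 CPM, and Mt-cyb, the cytochrome b gene, 3719, 3471 and 2998 CPM. The values of Mt-cox3, Mt-cyb, Mt-nd2, Mt-nd5 and Mt-atp6 were chosen by the limit on the spread. Mt-nd1, Mt-nd3, Mt-co2, Mt-nd4l and Mt-nd6, each with exactly 1 triple of reads, were highest in library A and lowest in library C. Mt-nd4, whose values were not chosen by the limit, was highest in library B, with 451, 453 and 394 CPM. Of all 11 mitochondrially encoded genes from 10 CPM with library values, 10 were highest in library A and none in library C. Their median coefficient of variation was 11.0%, which rests in part on values chosen by the limit. Nuclear oxidative phosphorylation genes were highest in library A in 58 of 81 (71.6%) and ribosomal protein genes in 40 of 64 (62.5%), against 34.3% of all 8387 genes. Sarcomere genes were highest in library C in 28 of 52 (53.8%), against 33.3% of all, and matrix genes in library B in 38 of 82 (46.3%), against 32.5%. Library A also held the fewest assigned reads, 30880786, and the part of depth, culture or handling in these orders was not tested. Genes of a class are not independent of each other, so these counts describe the 3 libraries.

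**Figure D5:**
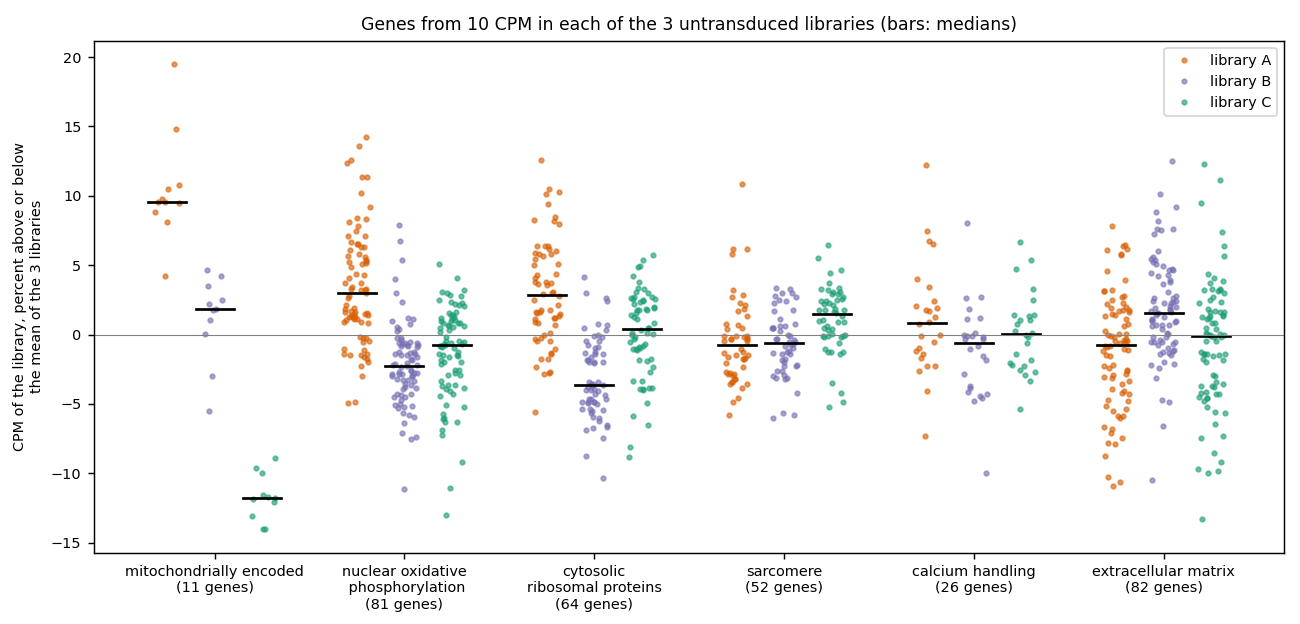
CPM of each gene in library A (orange), B (purple) and C (green), in percent above or below the mean of the 3 libraries, for 6 functional classes. Points are genes from 10 CPM with library values and black bars medians. Mitochondrially encoded genes spread the most, high in library A and low in library C, with a median coefficient of variation of 11.0%, against 2.76% for the 52 sarcomere genes. In both classes some values were chosen by the limit on the spread.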

How the data were processed

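PolyA-selected, strand-specific RNA libraries of untransduced differentiated iAM-1 cells (3 of 12 samples) were read from 2 tables of the series, from the column of the untransduced mean. The deposited CPM values are read counts scaled to the total of assigned reads and averaged by the authors over 3 libraries, for 32761 features. The deposited TPM values are also scaled by transcript length and were averaged in the same way by the authors. The submitters' processing notes name the build Rnor_6.0 and DESeq2. Neither the aligner nor the counter, nor what it did with shared reads, is named in any source used here. Other groups are not used here.

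Identifiers on several loci, 43 in all, were summed, as were identifiers that share a symbol (274 symbols). Listed genes absent by symbol were matched through a RefSeq synonym in 10 cases. Library CPM were recovered as triples of whole reads that return the stored mean at 15 significant digits. Exactly 1 triple was found for 99.7% of features above 0, and 2000 of 2000 low values were returned, while 8 of 3000 shifted control values had a triple. On simulated libraries 100.0% of single triples were right. Features with several triples were given the only one whose largest deviation of a library from the mean was within a limit. For 37 this limit was 8.96% of the mean, the 99th percentile of features with 1 triple. For 5 mitochondrial genes it was 21.1%, the largest such deviation, and 5 features were left without library values. The letters A, B and C tie no library to a sample. A floor of 3 reads is 0.086 to 0.097 CPM and covers counting error only.

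Classes, families and marker lists come from general knowledge, and the group and the lists were chosen with earlier results of these data known. A gene went to the first class that lists it. The rule for named genes took the 30 highest by TPM and by CPM, family and marker members from 1 TPM, the 2 highest of those below, the 5 highest of a class, the Sbk genes and the transgenes. No test was made, as 1 group is described. Promoter sequences are RefSeq's, in GRCr8. The tools were numpy 2.4.6, scipy 1.17.1, pandas 2.3.3 and, for plots, matplotlib 3.10.9 under Python 3.11.15. Some listed genes and families are counted but not reported here by name.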

Additional observations from a re-analysis of the deposited data

Results flagged for a closer look

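The eGFP feature of the shRNA vector had 9 reads in library B of cells that were not given this vector, with 0 reads in library A and 2 in library C. It was picked out because it lies outside the endogenous transcriptome and is above the 3 reads used as a floor in 1 library, and its source was not tested. Groups of 3 libraries were not examined for single outlying samples.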

How the results depend on the processing

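Shares depended on the scale. By summed TPM in place of reads, the sarcomere held 7.64%, calcium handling 1.11%, natriuretic peptides 4.66%, mitochondrially encoded genes 6.06%, nuclear oxidative phosphorylation 5.88%, ribosomal proteins 6.83% and the matrix 1.07%. Without mitochondrially encoded genes in the total, the shares of reads were 9.23% for the sarcomere, 2.97% for calcium handling, 1.86% for natriuretic peptides, 2.25% for nuclear oxidative phosphorylation, 1.14% for ribosomal proteins and 2.77% for the matrix. Without Nppa they were 9.17% for the sarcomere, 2.95% for calcium handling, 0.034% for natriuretic peptides, 2.43% for mitochondrially encoded genes and 2.75% for the matrix. Leaving out each library gave 2.18 to 2.22% for nuclear oxidative phosphorylation, 1.11 to 1.13% for ribosomal proteins and 2.69 to 2.71% for the matrix. With 3 libraries such a value cannot move by as much as 1 SD, so these ranges only describe the libraries. For oxidative phosphorylation and the matrix the ranges rest in part on library values chosen by the limit on the spread. Leaving out libraries could not be done for classes with an unresolved gene. The number of features holding 50% of the total was 621 by CPM, against 295 by TPM.

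Dominated families numbered 57 by CPM, against 53 by TPM, of which 52 were dominated by the same gene on both scales, and 42 at the 90% limit. With libraries left out in turn, 53 to 54 of the 90 families with library values were dominated by CPM, against 54 in all 3. The leading member differed between the scales in 9 families. From 0.5 TPM 12347 features were listed and from 1 CPM 11147, against 11779 from 1 TPM, and at 0.5 TPM the cell cycle list went up to 7 of 15 genes, with no other marker list changed. No paired analysis was possible because 1 group was described with no comparison. Without library values for the 5 most abundant features, their spread is unknown.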
